A study of Mus musculus with 16 samples.

Results

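Transcripts of 9 cell junction genes were followed in mouse two-cell embryos, which have not yet compacted. The genes are Gja1, Cdh1, Ctnnb1, Ctnna1, Tjp1, Cldn4, Cldn6, Ocln and F11r. They were taken by symbol, with every probe set that the platform annotation gives to that symbol alone, and this found 21 of the 45037 probe sets of the arrays that are not controls. Of the 21, 19 passed the filter on low values, and each of the 9 genes kept at least 1 probe set among 15274 genes tested. The embryos came in 2 kinds. BBB embryos had ooplasm, maternal pronucleus and paternal pronucleus all of strain B6, and BCB embryos carried a C3H maternal pronucleus together with B6 ooplasm and a B6 paternal pronucleus. Untreated embryos of each kind were set against embryos given α-amanitin, a mushroom toxin that blocks RNA polymerase II and is written "α-amantin" in the labels, where no dose or time is stated. Each of the 4 groups holds 4 one-colour arrays made from total RNA with a biotin label, 16 arrays in all. The labels do not give the number of embryos behind an array or say whether replicates came from separate collections, so p-values measure the spread between these samples, which may be technical. Whole embryos were measured, so fewer cells of a type and less RNA per cell cannot be told apart.

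Compaction is the step of cleavage at which the rounded blastomeres of a mouse embryo flatten against each other. It depends on E-cadherin (Cdh1), an adhesion molecule whose cytoplasmic tail binds beta-catenin (Ctnnb1), which in turn binds alpha-catenin (Ctnna1) and so the actin cytoskeleton. Gap junctions made of connexins such as connexin 43 (Gja1) open direct channels between blastomeres around that time. Tight junctions follow, built from the membrane proteins occludin (Ocln), claudins (Cldn4, Cldn6) and junctional adhesion molecule A (F11r) and from the scaffold ZO-1 (Tjp1) beneath them, and they later seal the trophectoderm. Protein inherited from the egg carries part of this machinery, while the embryo's own genome is switched on in the two-cell stage. Amanitin blocks new transcripts of that genome and leaves transcripts stored in the egg, so the comparison asks which of these transcripts depend on transcription by the embryo.

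The stretches before the transcription starts of 5 of the genes are shown because 4 of these genes lost most of their signal with amanitin and Tjp1 did not. Each is the 150 bases before a start in RefSeq's GRCm38.p6 annotation, written 5′ to 3′ on the gene's own strand, and 7 of the 9 genes had an entry that was used. Capitals mark matches on either strand to the CCAAT box (CCAAT), the GC box (GGGCGG), the TATA box (TATAAA), an AP-1 site (TGAGTCA) and an E-box (CAGGTG), so a GC box on the other strand reads CCGCCC and such an E-box reads CACCTG.
F11r chr1:171437411-171437560 (+ strand): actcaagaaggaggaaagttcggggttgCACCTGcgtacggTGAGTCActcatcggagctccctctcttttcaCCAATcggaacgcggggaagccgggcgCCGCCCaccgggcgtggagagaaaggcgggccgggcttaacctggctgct
Gja1 chr10:56377150-56377299 (+ strand): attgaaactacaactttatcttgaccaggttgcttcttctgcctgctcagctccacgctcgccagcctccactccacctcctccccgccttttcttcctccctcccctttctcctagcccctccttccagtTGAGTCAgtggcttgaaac
Ctnnb1 chr9:120933250-120933399 (+ strand): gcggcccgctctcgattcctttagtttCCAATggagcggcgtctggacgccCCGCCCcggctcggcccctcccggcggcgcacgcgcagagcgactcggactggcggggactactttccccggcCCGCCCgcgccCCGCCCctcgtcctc
Cldn6 chr17:23679215-23679364 (+ strand): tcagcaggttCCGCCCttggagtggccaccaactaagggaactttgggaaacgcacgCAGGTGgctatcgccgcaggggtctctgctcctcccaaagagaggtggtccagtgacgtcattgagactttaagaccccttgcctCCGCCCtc
Tjp1 chr7:65371245-65371394 (- strand): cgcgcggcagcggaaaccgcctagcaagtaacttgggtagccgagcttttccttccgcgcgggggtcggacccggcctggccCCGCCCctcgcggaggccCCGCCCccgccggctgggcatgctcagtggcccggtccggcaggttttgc
No 2 matches in these stretches shared a base. The starts used for Tjp1 and Cldn6 lie inside the annotated genes, so neither is the outermost start. The Tjp1 stretch and the last bases of the Cldn6 stretch, with the GC box nearest the Cldn6 start, thus lie within those genes.

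The 7 genes have 9 starts in this annotation, and all 250 bases before each were searched. A GC box was found before 8 of the 9 starts, the exception being that of Gja1. The searched stretches of the 2 Ctnnb1 starts overlap. The GC boxes of its second start are among those of its first, so these starts are not independent. A GC box stands before 32.7% of the 32851 starts of all genes. An AP-1 match lay 19 bases before the start of Gja1, 109 bases before that of F11r and at 2 places before that of Cldn4, against 4.46% of all starts. The CCAAT box was matched before 3 of the 9 starts (33.8% of all), the E-box before 4 (17.2%) and TATAAA before 1, the second start of Ctnnb1 (12.4%). The members that fell and the members that did not fall both held GC boxes, with 2 before Tjp1 and 2 before Cldn6, and both held AP-1 matches. These matches describe the letters only, and no binding was measured.

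The deposited intensities had a mean of 150 on every array once the highest and lowest 2% of values were left out. Correlations between arrays of a group were 0.976 to 0.99, taken across probe sets, which are not independent replicates. Signals of 12 added poly-A control probe sets were 1.86 (BBB) and 1.88 (BCB) higher on the log2 scale on treated arrays, those of 9 hybridization control probe sets were 0.55 and 0.81 higher, and the 3′ to 5′ ratio of actin was lower (7.77 to 6.42 and 8.58 to 6.95). A rise or fall is therefore relative to the scale of each array. Values scaled to the controls are given after those of the 9 genes and beside named rises of the other junction, polarity and cytoskeleton genes. Marker genes are given as deposited only, so their rises and falls hold on that scale alone. The labelled stage was checked with marker genes. The 5 two-cell markers, with Zfp352 at 4630 and the initiation factor Eif1a at 463 in BBB, summed to between 10616.6 and 11547.5 on untreated arrays and to between 278.7 and 493.2 on treated ones. Of the 6 markers inherited from the egg, which summed to between 9952.5 and 14506.9 over all arrays, Zp3, of the egg coat, was at 739 without and 747 with amanitin in BBB, and the oocyte growth factor Gdf9 was at 2110 and 3570. Bmp15, Mos and Nlrp5 of that list rose as well, and Dppa3 fell from 5120 to 2000 in BBB (log2 difference −1.37; −1.49 in BCB).

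Markers of cumulus and granulosa cells, which surround the egg and use connexin 43, were looked at beside Gja1. Of 14 listed, 12 were on the arrays and 9 were tested. Their summed intensity was 2497.2 to 3361.5 on untreated arrays and 776.1 to 971.1 on treated ones, most of it from the hormone receptor gene Amhr2 (2090 in BBB, 58.9 with amanitin) and the nuclear receptor gene Nr5a2 (516 and 487). The defining granulosa hormone Amh lay between 1.1 and 4 on all arrays, and neither the matrix factor Tnfaip6 (0.3 to 14.8) nor the activin subunit Inhba (2.6 to 37.1) passed the filter. The other 7 tested markers had group means below 135 and were at or above their untreated mean in every treated group, from Ptx3 (3.28 in BBB, 13 with amanitin) and Fshr (3.7 and 18.8) through Has2 (15.2 and 37), Star (18.1 and 21.6) and Inha (19.3 and 29.3) to Foxl2 (51.8 and 64.6) and Cyp11a1 (62.6 and 134). The part of such cells in the junction results was not tested.

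With amanitin, 7 of the 9 junction genes fell in both kinds of embryo. F11r and Gja1 kept 3.06% to 3.52% of their untreated intensity. Ctnnb1, Cldn6 and Cdh1 kept 13.1% to 21.6%, Ctnna1 kept 51.9% to 61.8%, and the dim Ocln fell to near background. Ocln passed the filter only through untreated arrays, which favoured its lower call. Tjp1 rose slightly in BBB embryos, a call that other scalings ended or turned, and Cldn4 did not pass the test in either kind. Values are those of each gene's leading probe set, that is, the one of its tested probe sets whose 16-array mean was highest, and a call is a Benjamini-Hochberg adjusted p under 0.05 in limma over 31953 tested probe sets. In BBB embryos 1 of the 9 genes was called higher and 7 were called lower, beside 37.1% of all genes called higher and 33.1% called lower. In BCB embryos 0 were called higher by limma (7 of the 9 had an unadjusted p under 0.05, all of them lower, beside 74% of all genes with such a p in either direction) and 7 lower, beside 39.9% and 31.9% of all genes. The median log2 difference of the 9 genes was −2.12 in BBB and −2.11 in BCB, and that of all tested genes was 0.11 and 0.17.

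**Figure D1:**
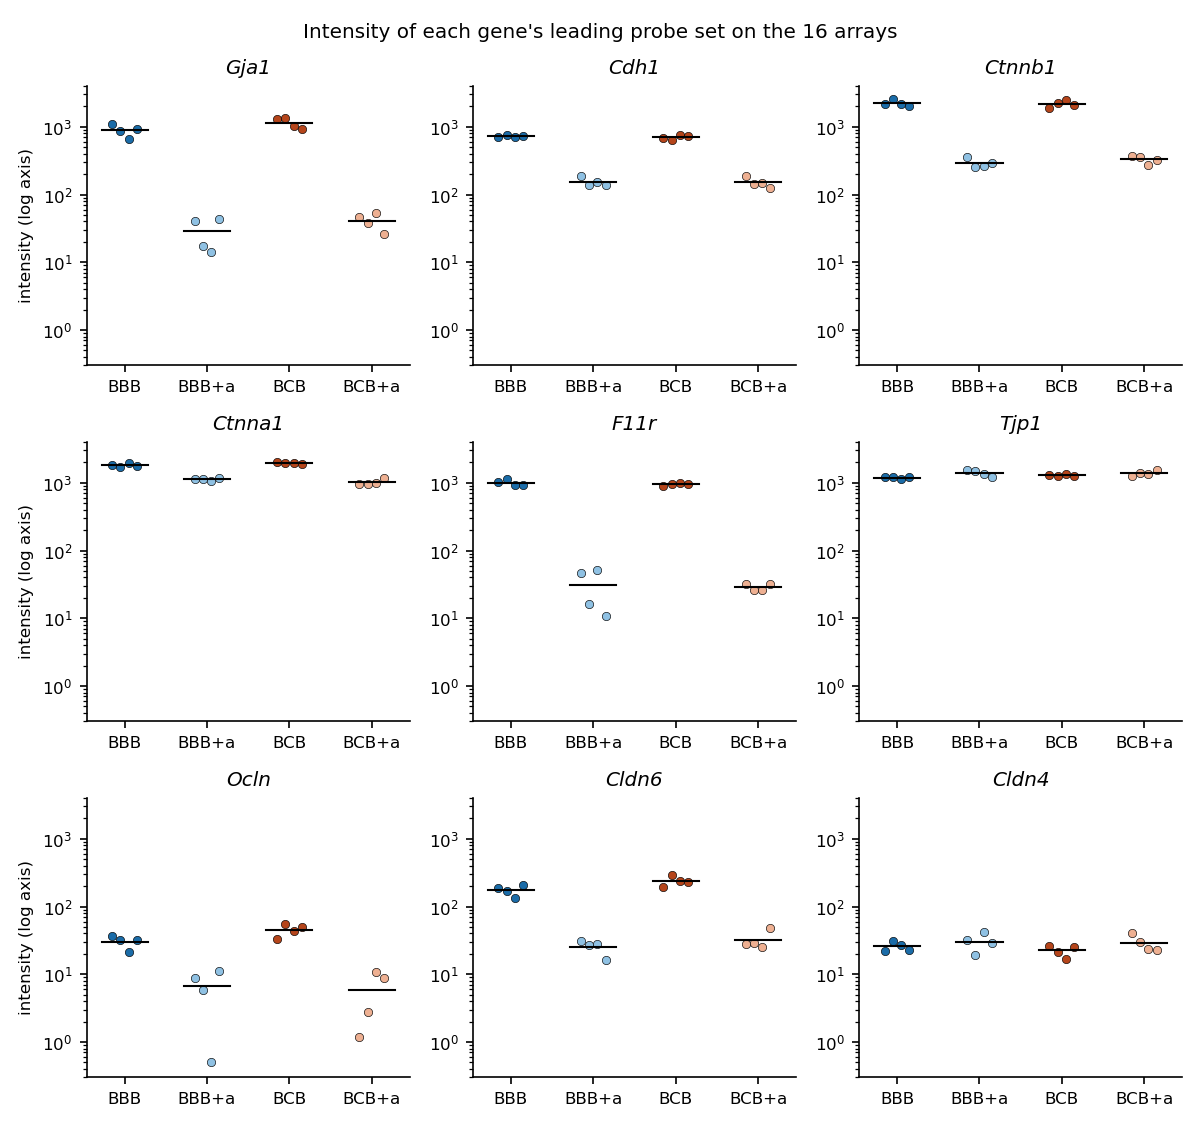
Intensity (log axis) of the leading probe set of each of the 9 genes on 16 arrays, with 4 points and a bar at the mean for each of BBB, BBB+a, BCB and BCB+a, where +a marks amanitin. Gja1 and F11r drop from between 663.5 and 1346.6 to between 10.7 and 52.5, while the 16 values of Tjp1 stay between 1125.7 and 1529.3.

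Gja1, the connexin of the embryo's best known gap junctions, read 1097.8, 879.5, 663.5 and 936.6 on the 4 BBB arrays and 40.2, 17.3, 14.2 and 44.2 on the BBB arrays with amanitin. In BCB it read 1296.8, 1346.6, 1040.7 and 937 untreated and 46.9, 37.4, 52.5 and 25.7 with amanitin. Every treated array lay far below every untreated array, and the highest treated value was far under the lowest untreated one. The mean fell in BBB from 894 ± 179.5 to 29.0 ± 15.4 (SD, n = 4) and in BCB from 1155 ± 198 to 40.6 ± 11.7, by limma a log2 difference of −4.38 in both kinds (SE 0.21, adjusted p 8.61e-15 and 8.81e-15). Only 1.04% of tested genes fell further in BBB and 1.06% in BCB. The treated values lay at the 45.2nd to 68.5th percentile of their arrays, so the size of the fall depends on the pseudocount, and it was −5.04 in BBB with a pseudocount of 1 and −3.36 with 64.

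F11r codes for junctional adhesion molecule A, an immunoglobulin-like protein that reaches nascent contacts before the claudins do. Its intensity was 1019.6, 1138.3, 925.4 and 916.3 in BBB and 46.2, 16, 52.1 and 10.7 with amanitin. In BCB the values were 888, 949.5, 1007.5 and 945.9 untreated and 31.6, 25.8, 26.4 and 32.2 treated. The untreated arrays of both kinds held a narrow band, and all 8 treated arrays were below 53. The mean went from 999.9 ± 103 to 31.2 ± 20.9 in BBB (log2 difference −4.54, SE 0.21, adjusted p 4.19e-15 in limma) and from 948 ± 48.8 to 29 ± 3.37 in BCB (−4.42, adjusted p 6.5e-15). In BBB 0.818% of all tested genes fell further, and in BCB 0.989%. The falls of F11r and Gja1 differ by less than their standard errors, and which is larger turns with the setting. With a pseudocount of 1 the BBB difference of F11r was −5.23 and with 64 it was −3.50. Averaging the probe sets of each gene, dim ones included, it was −2.02 in BBB and −1.86 in BCB, and that of Gja1 was −2.69 and −2.84.

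The cadherin and its catenins fell to different extents. Cdh1, which codes for E-cadherin, read 699.8, 751.8, 706.5 and 737.9 in BBB and 190.4, 137.4, 152.1 and 139.8 with amanitin. In BCB it read 693.1, 628, 757.1 and 734.4 against 190.5, 144.3, 147.3 and 125.5. The 8 untreated arrays were all above 600 and the 8 treated arrays all below 200, and the kinds overlapped within each treatment. The log2 difference was −2.12 in BBB (SE 0.12, adjusted p 2.89e-13 in limma) and −2.11 in BCB (SE 0.12, adjusted p 3.42e-13), which left 21.4% and 21.6% of the untreated mean. About 10% of all genes fell further (10 and 10.3%).

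Ctnnb1, the gene of beta-catenin, which also carries Wnt signals to the nucleus, had intensities of 2168.1, 2554.7, 2188.5 and 1994.2 in BBB and 353, 252.6, 267.9 and 296.5 with amanitin. The BCB values were 1919.9, 2281.9, 2520.3 and 2103.9 untreated and 364.6, 364.1, 275.4 and 326.7 treated. Treated and untreated arrays did not overlap, the lowest untreated value being 1919.9 and the highest treated value 364.6. The difference was −2.87 in BBB (SE 0.12, adjusted p 5.1e-16 in limma) and −2.67 in BCB (SE 0.12, adjusted p 1.73e-15), with 13.1% and 15.1% kept.

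Ctnna1 codes for alpha-catenin, the link between the cadherin complex and actin. Its leading probe set read 1811.5, 1733.4, 1970.1 and 1766.2 in BBB and 1120.9, 1149.5, 1053.4 and 1175.6 with amanitin. On the BCB arrays it read 2049.4, 1989.3, 1982.5 and 1884.2 untreated and 952.1, 964.1, 996.4 and 1192.2 treated. No treated array reached an untreated one, and 51.9% or more of the mean remained. The log2 difference was −0.69 in BBB (SE 0.08, adjusted p 7.97e-08 in limma) and −0.94 in BCB (SE 0.08, adjusted p 3.83e-10). In all, 27.2% (BBB) and 22% (BCB) of tested genes fell further.

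Among the tight junction membrane genes, Cldn6 and Ocln fell and Cldn4 did not pass. Cldn6, a claudin of embryonic epithelia, read 190.7, 171.1, 133.3 and 207.5 in BBB, 31.4, 27, 27.5 and 16.3 in BBB with amanitin, 193.3, 295.1, 236.9 and 231.1 in BCB and 27.9, 29, 25.2 and 47.5 in BCB with amanitin. All 8 treated values were below 50 and all 8 untreated values above 130. The differences were −2.20 (BBB, SE 0.17, adjusted p 7.51e-11) and −2.41 (BCB, SE 0.17, adjusted p 1.62e-11) in limma.

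Ocln, the gene of occludin, was dim throughout. It read 36.1, 32, 21.1 and 31.6 in BBB against 8.9, 5.9, 0.5 and 11.2 with amanitin, and 32.9, 55.8, 44.2 and 49.1 in BCB against 1.2, 2.8, 10.8 and 8.8. Treated arrays lay at or below the 41st percentile of their array, and none overlapped an untreated array. The probe set passed the filter only through its untreated arrays, so the filter favoured a lower call. With no filter the BBB adjusted p was 0.000133 in limma. The differences were −1.04 in BBB (SE 0.19, adjusted p 3.95e-05 in limma) and −1.50 in BCB (SE 0.19, adjusted p 2.35e-07). At such intensities the pseudocount sets the size, which in BBB was −2.37 with 1 and −0.41 with 64.

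Cldn4, a claudin that the trophectoderm later uses, read 21.8, 31.1, 27.1 and 23 in BBB and 31.7, 19.3, 42.1 and 28.5 with amanitin. In BCB it read 26.4, 21.5, 17 and 25.6 untreated and 40.7, 30.3, 23.7 and 23 treated. The groups overlapped in both kinds, and the values lay at the 46.7th to 66th percentile of their arrays. The log2 difference was 0.14 in BBB (95% confidence interval −0.22 to 0.49, adjusted p 0.505 in limma) and 0.22 in BCB (−0.13 to 0.58, adjusted p 0.255).

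Tjp1 codes for ZO-1, the scaffold that ties tight junction proteins to actin and that also binds alpha-catenin. It read 1213.1, 1201.5, 1125.7 and 1223.9 in BBB and 1521.7, 1486.4, 1365.3 and 1236.7 with amanitin. The BCB values were 1311.1, 1243.3, 1348.3 and 1274.8 untreated and 1242, 1416.1, 1325.9 and 1529.3 treated. In BBB the treated arrays were all above the untreated ones, the nearest pair being 1236.7 and 1223.9, and in BCB they overlapped. The difference was 0.23 in BBB (SE 0.08, adjusted p 0.0201 in limma) and 0.09 in BCB (SE 0.08, adjusted p 0.372). The BBB call ended without BBB array 3 (0.20, adjusted p 0.0568), without BBB+a array 1 (0.19, adjusted p 0.0716) and without BBB+a array 2 (0.20, adjusted p 0.0618), and also with quantile normalization (0.07, adjusted p 0.444) and without the intensity trend (adjusted p 0.0623).

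**Figure D2:**
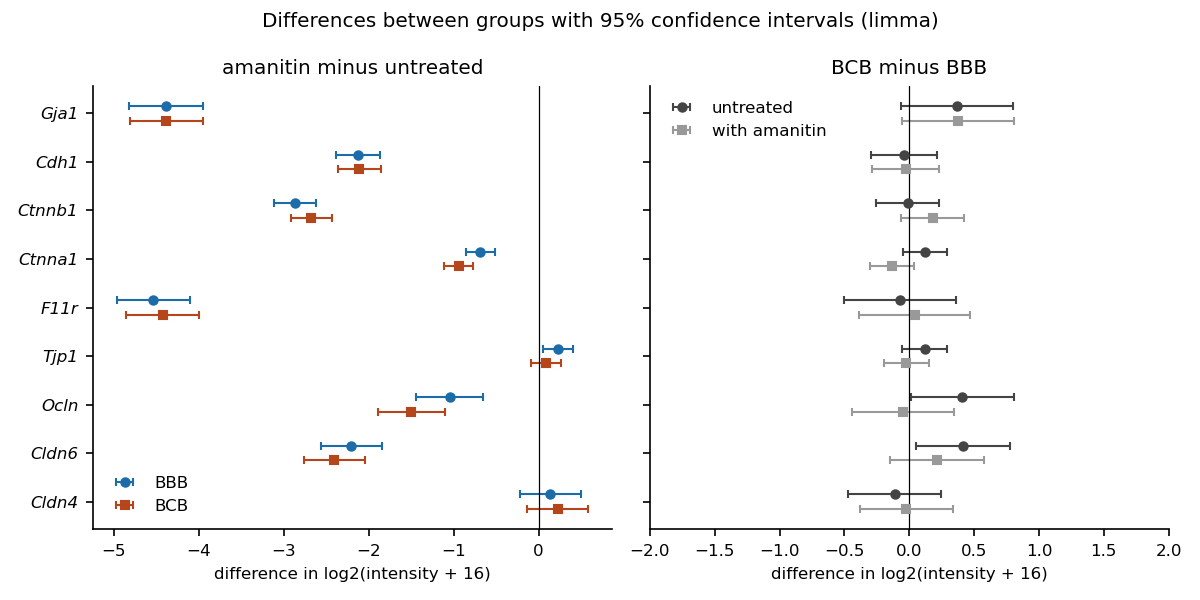
Differences in log2(intensity + 16) for the 9 genes with 95% confidence intervals from limma, amanitin minus untreated in BBB and BCB on the left and BCB minus BBB with and without amanitin on the right. The amanitin differences run from −4.54 (F11r, BBB) to 0.23 (Tjp1, BBB), while those between the kinds lie between −0.14 and 0.41.

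Scaled to either set of control transcripts, each of the 9 genes had an amanitin difference below 0 in both kinds. With the arrays scaled to the poly-A controls, the 9 genes were all called lower in both kinds, where 82.4% (BBB) and 81.1% (BCB) of all genes were called lower and the median of all genes was −1.17 and −1.13. Tjp1 was then at −1.61 in BBB and −1.77 in BCB, and Cldn4 at −1.04 and −0.89. F11r and Gja1 were at −5.97 and −5.83 in BBB, and Ctnna1 at −2.52. Scaled to the hybridization controls, 8 were called lower in each kind, beside 43.5% and 48.3% of all genes. Tjp1 turned to −0.32 and −0.71, and Cldn4, at −0.21 and −0.27, did not pass. The share of higher calls among all called genes moved from 52.8% in BBB and 55.6% in BCB to 1.22% and 1.02% with the poly-A controls, to 32.6% and 23.8% with the hybridization controls, and to 65.1% and 64.4% with arrays centred on their medians. In that last setting the median of all genes was 0.41 and 0.39, and Tjp1 (0.53 and 0.30) and Cldn4 (0.43 and 0.44) were called higher in both kinds. F11r, Gja1 and Ctnnb1 had the largest falls of the 9 genes in BBB as deposited and with the poly-A controls, whereas in the order of the others Cdh1 (−3.86) and Cldn6 (−3.59), Ctnna1 (−2.52) and Ocln (−1.95 in place of −1.04), and Tjp1 and Cldn4 changed places.

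**Figure D3:**
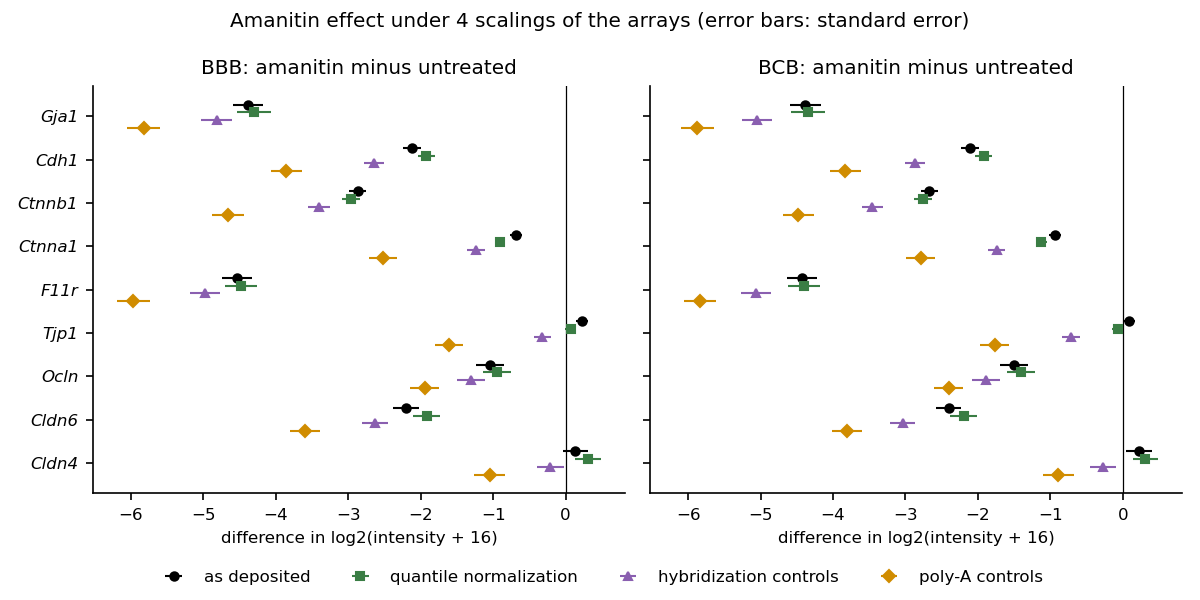
Amanitin minus untreated in log2(intensity + 16), with standard errors, for the 9 genes under 4 scalings (as deposited, quantile normalization, hybridization controls, poly-A controls), BBB on the left and BCB on the right. Poly-A scaling shifts every gene to lower values and takes Tjp1 from 0.23 to −1.61 in BBB, and 7 genes lie below 0 under all 4.

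Of the 9 genes, 5 have several probe sets, and 10 tested probe sets besides the leading ones were set against these in both kinds. In 12 of the 20 comparisons the probe set was so dim untreated that, with the pseudocount of 16, it could not have fallen as far as the leading one, so a smaller fall there is no result. These are all comparisons of Gja1 except those of 1438945_x_at, and those of Ctnnb1 1430533_a_at and F11r 1436374_x_at. Of the 8 with room, 4 reached the smallest possible p, 0.0286 (exact two-sided permutation test of differences within arrays, n = 4 against 4). These were 1 for Ctnnb1 1450008_a_at, 2 for Ctnna1 1436631_at and 1 for Ctnna1 1437807_x_at. Their adjusted p over the 20 was 0.0358, but the 12 fixed comparisons in that adjustment pull it down. The 8 were not adjusted alone, so these 4 are not read as calls. For Gja1, probe sets 1415800_at, 1438650_x_at, 1438945_x_at and 1438973_x_at all fell in both kinds, with log2 differences of −1.77 to −3.85 in BBB. No treated array of theirs reached an untreated one. The other Gja1 probe set, 1415801_at, was between 7.3 and 11.5 on untreated and between 1.3 and 16.6 on treated arrays. Those values overlap, and its differences of −0.28 and −0.33 did not pass (adjusted p 0.222 and 0.148 in limma).

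For Ctnna1, probe set 1436631_at went from 34.4, 44.7, 42.7 and 47.7 in BBB to 3, 1, 1.3 and 1 with amanitin. The treated values of both kinds lay at the 5.27th to 18.1st percentile of their arrays, too low to give the share that was kept. The leading probe set kept 61.8% in BBB and 51.9% in BCB, and 1437807_x_at kept 73.2% and 63.7%. On log2(intensity + 16), which limits the fall of so dim a probe set, the difference of 1436631_at was −1.73 in BBB and −1.52 in BCB. It lay below that of the leading probe set in both kinds (exact permutation p 0.0286 each). Probe set 1436631_at passed the filter only through its untreated arrays. The filter thus favoured a fall, and the larger fall is not read as a result. The adjusted p of 0.0358 is over all 20 comparisons, the 12 fixed ones included. The fourth Ctnna1 probe set, 1437275_at, stayed between 1.6 and 8.7 and was not tested.

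For F11r, probe set 1436374_x_at was near background, at 0.6 to 6.9 on untreated arrays. It read 43.6, 13.2, 18.2 and 4.4 on BCB arrays with amanitin and 30.4, 7.6, 14.6 and 4.5 on BBB arrays with amanitin. Its treated and untreated values overlapped in both kinds, and limma called it higher in BCB (0.71, SE 0.26, adjusted p 0.0182) and not in BBB (0.50, adjusted p 0.0921). No untreated array had this probe set above its 28th percentile, so it passed the filter only through treated arrays. The filter thus favoured a higher call, which is not read as a rise. For Ctnnb1, 1450008_a_at fell (−2.38 in BBB, −2.14 in BCB), as did the dim 1430533_a_at (−0.68 and −0.92). The latter passed the filter only through untreated arrays, which favoured its lower call. The second Ocln probe set, 1440220_at, lay between 0.8 and 17.7 and was not tested. Counting a gene only where all its tested probe sets were called one way left 5 genes lower in each kind, without Gja1 and F11r. The share of all genes under this rule is not given, so the 5 are not compared with all genes. F11r dropped out through 1436374_x_at. Gja1 dropped out through its dim probe set whose treated and untreated values overlap. Signals that dim could hardly show a fall, so the drop says little about either gene.

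**Figure D4:**
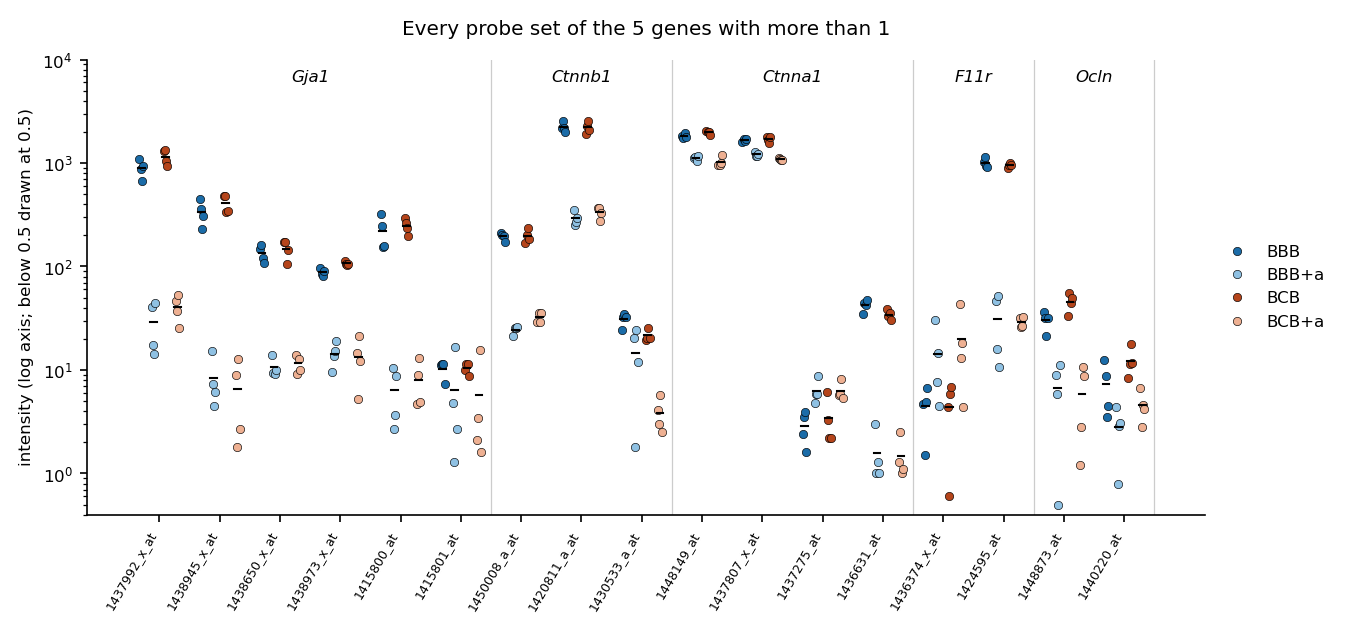
Intensity (log axis) on each of 16 arrays of every probe set of Gja1, Ctnnb1, Ctnna1, F11r and Ocln, by group, with a bar at each mean. Ctnna1 1436631_at falls to between 1 and 3 while 1448149_at stays above 952, and Gja1 1415801_at and F11r 1436374_x_at overlap between treated and untreated arrays.

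The second question is whether the strain of the maternal pronucleus changed these transcripts. Without amanitin, 0 of the 9 genes were called higher and 0 lower in BCB against BBB by limma, beside 0.386% and 0.268% of all genes. At an unadjusted p under 0.05, 2 of the 9 stood out against 1079 of 15274 genes. These were Cldn6, with a mean of 239 ± 42.0 in BCB and 176 ± 31.9 in BBB (SD, n = 4; log2 difference 0.41, interval 0.05 to 0.78, adjusted p 0.597 in limma), and Ocln, at 45.5 ± 9.65 and 30.2 ± 6.40 (0.41, interval 0.02 to 0.81, adjusted p 0.687). The arrays of the kinds overlapped for both. Gja1 was 0.37 higher in BCB (interval −0.06 to 0.80, adjusted p 0.834), and its probe set 1438973_x_at read 113.4, 104.9, 104 and 105.4 in BCB and 96, 83.7, 80.2 and 90.7 in BBB, with no overlap (0.25, adjusted p 0.915). The remaining 6 genes differed by −0.11 to 0.12, and for Cdh1 and Ctnnb1 the intervals (−0.30 to 0.21 and −0.26 to 0.23) span 0.813-fold to 1.16-fold and 0.838-fold to 1.17-fold.

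With amanitin, limma again called 0 of the 9 genes higher and 0 lower between the kinds, beside 0.0393% of all genes in each direction. At an unadjusted p under 0.05 there were 0 of the 9, beside 10.7% of all genes. Among leading probe sets Gja1 had the largest difference (0.37, interval −0.06 to 0.81, adjusted p 0.543). Other Ctnnb1 probe sets went both ways, the dim 1430533_a_at at −0.56 (adjusted p 0.285 in limma) and 1450008_a_at at 0.25 (adjusted p 0.508). For F11r the difference was 0.04 (−0.39 to 0.47) and for Cdh1 −0.03 (−0.28 to 0.23).

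Whether the response to amanitin differed between the kinds was tested as an interaction, BCB minus BBB. By limma 0 of the 9 genes were called higher and 0 lower, beside 0.0655% and 0.19% of all genes. Ctnna1 alone had an unadjusted p under 0.05 (−0.25, interval −0.49 to −0.01, adjusted p 0.55), beside 8.05% of all genes. For Tjp1, called in BBB and not in BCB, the interaction was −0.14 (−0.39 to 0.10, adjusted p 0.806), so its effect was not shown to differ between the kinds. For Gja1 it was 0.00 (−0.61 to 0.61) and for Ocln −0.46 (−1.01 to 0.10).

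Other junction genes were called in both directions with amanitin, in shares close to those of all genes. Of 100 listed genes of junctions, polarity and the compaction cytoskeleton, 92 were on the arrays and 82 were tested. In BBB 36 (43.9%) were called higher and 27 (32.9%) lower, near the 37.1% and 33.1% of all genes, with a median log2 difference of 0.25 (0.11 over all genes). In BCB 35 (42.7%) and 24 (29.3%) were called, beside 39.9% and 31.9% of all genes, with a median of 0.19. With the poly-A controls as the scale, 1 was higher and 65 (79.3%) lower in BBB and 0 and 64 (78%) in BCB, beside 82.4% and 81.1% of all genes lower. With the hybridization controls 23 of the 82 were higher and 33 lower in BBB, beside 21% and 43.5% of all genes. In BCB 15 were higher and 39 lower on that scale, beside 15.1% and 48.3% of all genes. In the comparisons between the kinds and in the interaction, limma called 0 of the 82 in either direction.

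In the adherens junction list 4 of 15 genes (26.7%) rose and 6 (40%) fell in each kind. Of all genes 37.1% rose and 33.1% fell in BBB, and 39.9% and 31.9% in BCB. Ajuba, a LIM protein of cadherin contacts, fell from 1497 ± 112 to 24.1 ± 12.9 in BBB (−5.28; −5.86 in BCB), further than any of the 9 genes. Plekha7, which binds p120 catenin, also fell (−1.71 in BBB, −1.40 in BCB). N-cadherin (Cdh2) rose from 89.5 ± 18.6 to 419 ± 48.1 in BBB (2.05; 1.78 in BCB), and Ctnnal1, a relative of alpha-catenin, rose by 1.60 and 1.55. Against the poly-A controls neither passed, with Cdh2 at 0.35 and 0.08 and Ctnnal1 at −0.23 and −0.30 in BBB and BCB. Scaled to the hybridization controls, Cdh2 (1.55 and 1.05) and Ctnnal1 (1.06 and 0.76) stayed higher in both kinds.

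In the tight junction list 9 of 20 genes (45%) rose and 8 (40%) fell in BBB, beside 37.1% and 33.1% of all genes. In BCB 7 (35%) rose and 6 (30%) fell, beside 39.9% and 31.9% of all genes. Relatives of the members went both ways. Jam2, of the same family as F11r, rose from 77 ± 8.63 to 391 ± 85.4 in BBB (2.11; 1.66 in BCB), while Jam3 fell in BBB (−0.57) and did not pass in BCB (−0.32, adjusted p 0.0635 in limma). The claudins Cldn12 (515 ± 80.1 to 133 ± 20.02, −1.83; −1.25 in BCB) and Cldn7 (−1.34; −1.16) fell, and Cldn10 rose (0.79; 0.76), although scaled to the poly-A controls it did not pass (−0.33; −0.26). Jam3 and Cldn10 were named after their values were seen. Magi1, a junctional scaffold, rose by 1.39 and 1.31. Against the poly-A controls Jam2 stayed higher in BBB (0.43, adjusted p 0.0442) and was at −0.02 in BCB, while Magi1 was at −0.38 (adjusted p 0.0872) and was called lower in BCB (−0.49, adjusted p 0.0321 in limma). Scaled to the hybridization controls, Jam2 (1.61 and 0.94) and Magi1 (0.865 and 0.537) stayed higher in both kinds. Cldn10 did so in BBB only (0.465; 0.304 in BCB). Among 6 gap junction genes besides Gja1, 1 (16.7%) fell and 2 (33.3%) rose in each kind, beside the same shares of all genes. The connexin Gjc1 went from 67.0 ± 11.7 to 28.9 ± 7.82 in BBB embryos (−0.89; −1.003 in BCB), and Gja4, the connexin of the egg (0.66 and 0.88), and the pannexin Panx1 (0.56 and 0.77) rose. Scaled to the poly-A controls, Gja4 (−0.95; −0.76 in BCB) and Panx1 (−0.90; −0.71) were called lower, and with the hybridization controls they did not pass in BBB (0.18 and 0.12).

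Desmosome genes rose in 4 of 9 cases (44.4%) and fell in 2 (22.2%) in BBB, beside 37.1% and 33.1% of all genes. In BCB 6 (66.7%) rose and 2 (22.2%) fell, beside 39.9% and 31.9% of all genes. Desmoplakin (Dsp) fell from 231 ± 16.8 to 28.1 ± 25.7 in BBB (−2.69; −2.18 in BCB embryos), and so did the plakophilin Pkp3 (−1.43 and −1.20), while Pkp4 rose from 2112 ± 35.4 to 5555 ± 434 (1.39; 1.29 in BCB) and Perp by 1.26 and 1.08. Against the poly-A controls Pkp4 was called lower (−0.47 in BBB, −0.58 in BCB), and Perp, at −0.06 and −0.28, did not pass. Scaled to the hybridization controls, Pkp4 (0.83 and 0.48) and Perp (0.87 and 0.50) stayed higher in both kinds. Of 17 cell polarity genes 11 (64.7%) rose and 4 (23.5%) fell in each kind, beside the same shares of all genes. Their medians were 0.81 in BBB and 0.97 in BCB, beside 0.11 and 0.17 over all genes. Scaled to the poly-A controls, 76.5% of these genes were called lower in each kind, beside 82.4% and 81.1% of all genes. Mark2, a polarity kinase, rose from 821 ± 133 to 3057 ± 450.5 in BBB (1.88; 1.54 in BCB) and Pard3, of the apical complex, from 315 ± 40.5 to 1191 ± 157 (1.86; 1.78). Scrib (−1.80; −1.43) and the atypical protein kinase C gene Prkcz (−1.79; −1.89) fell. Against the poly-A controls Mark2 (0.04 in BBB, −0.32 in BCB) and Pard3 (0.05 and −0.04) did not pass.

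Of 15 genes of the compaction cytoskeleton and its regulators, 6 (40%) rose and 6 (40%) fell in BBB, beside 37.1% and 33.1% of all genes. In BCB 5 (33.3%) rose and 5 (33.3%) fell, beside 39.9% and 31.9% of all genes. The adhesion molecule Epcam dropped in BBB from 446 ± 67.4 to 23.3 ± 12.5 (−3.59; −4.07 in BCB), and so did the kinase Prkcd (−2.30 and −1.87). Myo10, the motor of filopodia, rose from 692 ± 42.2 to 2381 ± 240.2 (1.76; 2.04 in BCB) and the GTPase Cdc42 from 1042 ± 44.02 to 2308 ± 80.4 (1.14; 0.93). Scaled to the poly-A controls, Cdc42 was called lower (−0.71 in BBB, −0.93 in BCB), and Myo10 (−0.08 and 0.19) did not pass. With the hybridization controls Myo10 stayed higher in both kinds (1.21 and 1.25), and Cdc42 did so in BBB only (0.59; 0.13 in BCB). Markers of the compacted embryo and trophectoderm, a stage later than these samples, were all tested, and their summed intensity was 1834.4 to 2671.1 untreated and 560.5 to 966.3 with amanitin. Of the 8, Atp1b1, of the sodium pump (1730 to 288 in BBB), Eomes (237 to 29.8), Tead4 (97.1 to 6.52), Cdx2 (54.3 to 15) and Krt8 (210 to 157, adjusted p 0.0485 in limma) fell in BBB, Gata3 rose (44.1 to 130), and Krt18 (113 and 111) and Aqp3 (24.6 and 20.1) did not pass.

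**Figure D5:**
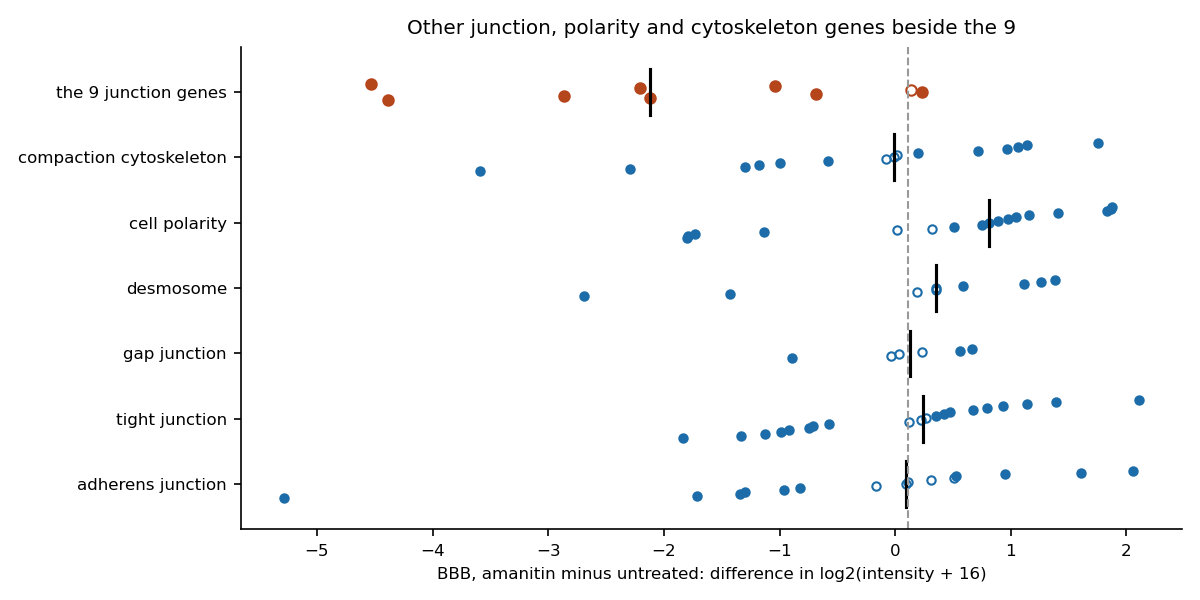
Amanitin minus untreated in BBB, in log2(intensity + 16), for the 9 genes and for the tested genes of 6 lists. Filled points passed the limma test, black bars are medians and the dashed line is the median of all genes (0.11). The median of the 9 genes is −2.12, and those of the lists lie between −0.01 and 0.81.

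Across the 16 arrays the 7 genes that fell followed each other closely, with correlations of 0.893 to 0.991 between their leading probe sets, and Tjp1 and Cldn4 ran against them (−0.346 to −0.642). These coefficients mostly describe the separation of treated from untreated arrays. The same separation gave 3188 other genes a correlation over 0.9 with Gja1 and 3267 with F11r. The genes most like F11r were Adsl, Ptpn1 and Ctsl (0.999, 0.998 and 0.998). Those most like Gja1 were Prc1, Rbmxl1 and Med31 (0.995, 0.994 and 0.994), and those most like Cdh1 were Sh2d3c, Aurkb and Atp5pb (0.996 each). Ctnnb1 was closest to Sac3d1, Nip7 and Rab20 (0.997, 0.997 and 0.996), Ctnna1 to Dhcr7, Gripap1 and Zfp445 (0.984, 0.983 and 0.983), Cldn6 to Zfp821, Zfp217 and Plk1 (0.988, 0.987 and 0.987) and Ocln to Trak2, Gss and Tbxa2r (0.964, 0.963 and 0.959). No gene passed 0.9 with Tjp1 or Cldn4, whose nearest were Rnf222, Tmem54 and Zdhhc2 (0.895, 0.893 and 0.877) and Grap2, Usp13 and Smyd4 (0.817, 0.815 and 0.803).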

How the data were processed

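RNA came from a Picopure extraction and an ENZO labelling kit, per the labels' protocols, on 16 one-colour arrays, 4 per group. The deposited values are intensities on a linear scale, whose mean without the highest and lowest 2% is 150 on every array. Software and scaling: not given in the sources used here. Of the 45037 probe sets besides 64 controls, 34945 have 1 symbol, 932 several and 9160 none in the platform annotation.

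Values were taken as log2(intensity + 16), and a probe set entered the test when 4 or more of the 16 arrays had it at or above their 40th percentile. A mean per group was fitted over all arrays in limma 3.58.1 (R 4.3.3) with an intensity trend, and 5 contrasts were adjusted by Benjamini-Hochberg over the 31953 tested probe sets. The median standard error of the amanitin difference in BBB was 0.17, limited by the number of arrays. The fit was tested on simulated data. No pair of arrays held identical values.

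The 9 genes, the lists of other junction, polarity and compaction genes (adherens junction, tight junction, gap junction, desmosome, cell polarity, compaction cytoskeleton), the marker lists and the tests were chosen with earlier results of these data known. Named genes were the 9, the 2 largest falls and 2 largest rises in BBB among called genes of each list, the 3 genes most correlated with each of the 9, and the markers Zfp352, Eif1a, Zp3 and Gdf9 with all tested markers of cumulus cells and of compacted embryos. Amh, Tnfaip6, Inhba, Bmp15, Mos, Nlrp5, Dppa3, Jam3 and Cldn10 were named after their values were seen. Alternatives were quantile normalization, median centring, scaling to poly-A or hybridization controls, pseudocounts of 1 and 64, no filter or the 60th percentile, only the groups compared, a replicate block, no trend, array weights, the mean or agreement of a gene's probe sets, and left-out arrays. Promoter stretches were read from RefSeq (GRCm38.p6). Motifs were searched on both strands.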

Additional observations from a re-analysis of the deposited data

Results flagged for a closer look

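In 5 of 76 groups of 4 arrays looked at, 1 per probe set and group, a single array stood apart from the other 3 by most of the group's range, and chance gives about 1 in 20 such groups. For Gja1 probe set 1415801_at, BBB array 4 was at 7.3 with the others at 11.2 to 11.5, and BCB array 3 with amanitin was at 15.7 with the others at 1.6 to 3.4. For Gja1 1438973_x_at, BCB array 1 was at 113.4 and the others at 104 to 105.4. For Ctnnb1 1450008_a_at, BBB array 1 with amanitin was at 21.2 and the others at 25.3 to 26.2. For Ctnna1 1436631_at, the same array was at 3 and the others at 1 to 1.3. None of the 5 is a leading probe set.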

How the results depend on the processing

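The falls of Gja1, F11r, Ctnnb1, Cdh1, Cldn6, Ocln and Ctnna1 with amanitin kept their direction and their call in both kinds in each of the 30 alternatives that give a value per gene. The count of genes called higher in BBB, 1 (Tjp1), was 2 with arrays centred on their medians, and 0 with BBB replicates 3 and 4 both left out, with no intensity trend, with quantile normalization and with either set of controls (hybridization, poly-A) as the scale. It was 0 to 1 with each array left out in turn. The count of genes called higher in BCB was 2 in place of 0 with arrays centred on their medians. Tjp1 turned to −1.61 (BBB) and −1.77 (BCB) scaled to the poly-A controls and to −0.32 and −0.71 scaled to the hybridization controls, and Cldn4 turned to −1.04 and −0.89 with the poly-A controls. The cause was not tested. Treated arrays have higher control signals. With the replicate number as a replicate block, 1 gene was called higher and 7 lower in BBB and 0 and 7 in BCB, and Tjp1 in BBB was at 0.23 (adjusted p 0.0291 in limma), so the block changed no call. Arrays of the same number correlated by −0.09 to 0.11 in their deviations from the group means, and the numbers are not taken to pair them. Between the kinds and in the interaction, limma called 0 of the 9 genes under every alternative run. Over all 20 probe-set comparisons, which include the 12 that dim signal fixes, 16 passed, 12 with a pseudocount of 1 and 18 with 64, alternatives chosen after seeing the data. Intensities near background limit the size of the falls of Ocln, Gja1, F11r and Ctnna1 1436631_at.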
